A study of Homo sapiens with 21 samples.

Results

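Laminin chains were followed through a TGFβ time course as the 8 genes LAMA1, LAMA3, LAMA4, LAMA5, LAMB1, LAMB2, LAMB3 and LAMC1, taken by symbol from the 23201 genes listed for these libraries. All 8 were listed, and 7 of them reached a mean normalised read count of 10 over the libraries and were tested, while LAMA4 did not. RNA-seq was performed on HMLE cells, a cell line made by immortalizing human mammary epithelial cells, to ask how genes move as TGFβ induces an epithelial-to-mesenchymal transition (EMT). The groups were untreated cells (d0) and cells under TGFβ for 1 day (d1), 4 days (d4), 7 days (d7), 10 days (d10), 15 days (d15) and 20 days (d20). Each timepoint had 3 libraries, 21 in all, every one from the same cell line with no other agent or genotype named, and the TGFβ dose was not given in the sources used here. The study's data statement calls the libraries biological triplicates, but the labels do not say whether they were separate cultures, so p-values measure only the spread between these samples. Untreated cells were sampled at d0 only, so days of treatment and days in culture cannot be told apart. All comparisons with d0 also share the same 3 untreated libraries.

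Laminins are trimers of an alpha, a beta and a gamma chain, secreted by epithelial and other cells and polymerised into the basement membrane, the sheet on which an epithelium sits. The chain composition decides which receptors a laminin can hold. Laminin with the LAMA3 and LAMB3 products anchors basal epithelial cells, those of the mammary gland included, through integrin α6β4 in hemidesmosomes, whereas trimers with LAMA1 or LAMA5 as alpha, LAMB1 or LAMB2 as beta and LAMC1 as gamma chain form the polymer network of most basement membranes. LAMA4 is known chiefly from the basement membranes of blood vessels and muscle.

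The files held a normalised read count, the reads of a gene divided by a size factor of its library, and 100% of the values came back as whole reads, within 0.02 of a whole number. Totals were between 18847917 and 22667754 reads per library. The epithelial markers KRT5, KRT14, TP63, CDH1 and ITGB4 were abundant in all libraries, the lowest value being 2838 for CDH1 at d20. They did not hold steady: from d0 to d20 CDH1 fell 2.51-fold and KRT5 2.05-fold (limma adjusted p = 1.70e-14 and 3.02e-06). TP63 went from a mean of 4453 to 3367, while KRT14 rose 1.26-fold and ITGB4 3.19-fold. The leukocyte gene PTPRC and the endothelial gene CDH5 had 0 or 1 reads in each library. The other endothelial gene examined, PECAM1, had 42 to 51 reads in the untreated libraries and 4 to 20 in the treated ones. The fibroblast marker PDGFRA had between 0 and 8 reads per library. THY1, the other fibroblast marker examined, was abundant and rose 4.63-fold, from a mean of 1375 at d0 to 6371 at d20. EPCAM, an epithelial adhesion gene that was also examined, fell 5.22-fold from d0 to d20. Of the luminal markers examined, KRT8 and KRT18 were abundant too, with means of 7955 and 7357 at d0 and 7818 and 4872 at d20. KRT19 had 289 at d0 and 347 at d20, and ESR1 had 39.0 and 33.4. Pairs of libraries from 1 timepoint lay 0.21 to 0.24 apart (root mean square of log2 differences over genes), except at d7, where the third library differed from the first by 0.47 and from the second by 0.46. In this library the tested laminin chains lay between 16.5% below (LAMB2) and 11.9% above (LAMB1) the mean of the other 2 d7 libraries. Libraries are numbered by the order of their columns, which carry no replicate number.

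LAMA3 and LAMB3 changed most among the 8 genes. LAMA3, the alpha chain of the hemidesmosomal laminin, had 8804, 8245 and 8058 normalised read counts in the 3 untreated libraries and 95319, 95146 and 90084 at d1. It reached 156187, 154139 and 160089 at d4. Every treated library lay above every untreated one, and the d4 libraries lay above those of all other days. Later, the d7 libraries had 74383, 72666 and 72726, the d10 libraries 84784, 88274 and 83790, the d15 libraries 72258, 73340 and 70297, and the d20 libraries 60662, 58986 and 61913. The lowest treated libraries were thus those of d20, and only d7 and d15 overlapped. The log2 fold change against d0 was 3.48 at d1 and 4.23 at d4 (SE 0.04 for both), an 11.2-fold and an 18.7-fold rise (limma adjusted p = 3.82e-24 and 9.28e-26), and it was still 2.85 at d20 (7.23-fold, limma adjusted p = 1.02e-22).

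LAMB3, the beta chain of the same laminin, had 8835, 8517 and 8817 normalised read counts at d0, 71497, 70970 and 71241 at d1, and 118152, 124741 and 116829 at d4. The d7 libraries then had 61087, 56341 and 60590, the d10 libraries 62255, 63978 and 61099, the d15 libraries 52269, 49105 and 50525, and the d20 libraries 52460, 48192 and 49966. As for LAMA3, no treated library overlapped the untreated ones and the d4 libraries were highest. Unlike for LAMA3, the libraries of d15 and d20 overlapped each other. The log2 fold changes against d0, in order of day from d1 to d20, were 3.03, 3.78, 2.77, 2.84, 2.54 and 2.52 (SE 0.04 on each day). This was an 8.17-fold rise at d1 and a 13.7-fold rise at d4 (limma adjusted p = 7.65e-23 and 1.12e-24).

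Both genes rose from d1 to d4 and fell from d4 to d7: LAMA3 rose by a log2 of 0.75 from d1 to d4 and fell by 1.10 from d4 to d7, and LAMB3 rose by 0.75 and fell by 1.02 (SE 0.04 for each, limma adjusted p between 1.41e-13 and 1.18e-11). After d7 neither changed by 2-fold or more between successive timepoints, and their steps were not all alike. LAMA3 rose by 0.22 from d7 to d10 and fell by 0.25 from d15 to d20 (limma adjusted p = 6.11e-05 and 1.54e-05), where LAMB3 had 0.07 and -0.01 (limma adjusted p = 0.128 and 0.800), and the difference between the genes was not tested for these steps. The LAMB3 fall from d4 to d7 lay at the 2-fold limit, at -0.99 without the second d4 library and -0.98 without the second d7 library. Under quantile normalization it was -0.84 for LAMB3 and -0.87 for LAMA3.

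**Figure D1:**
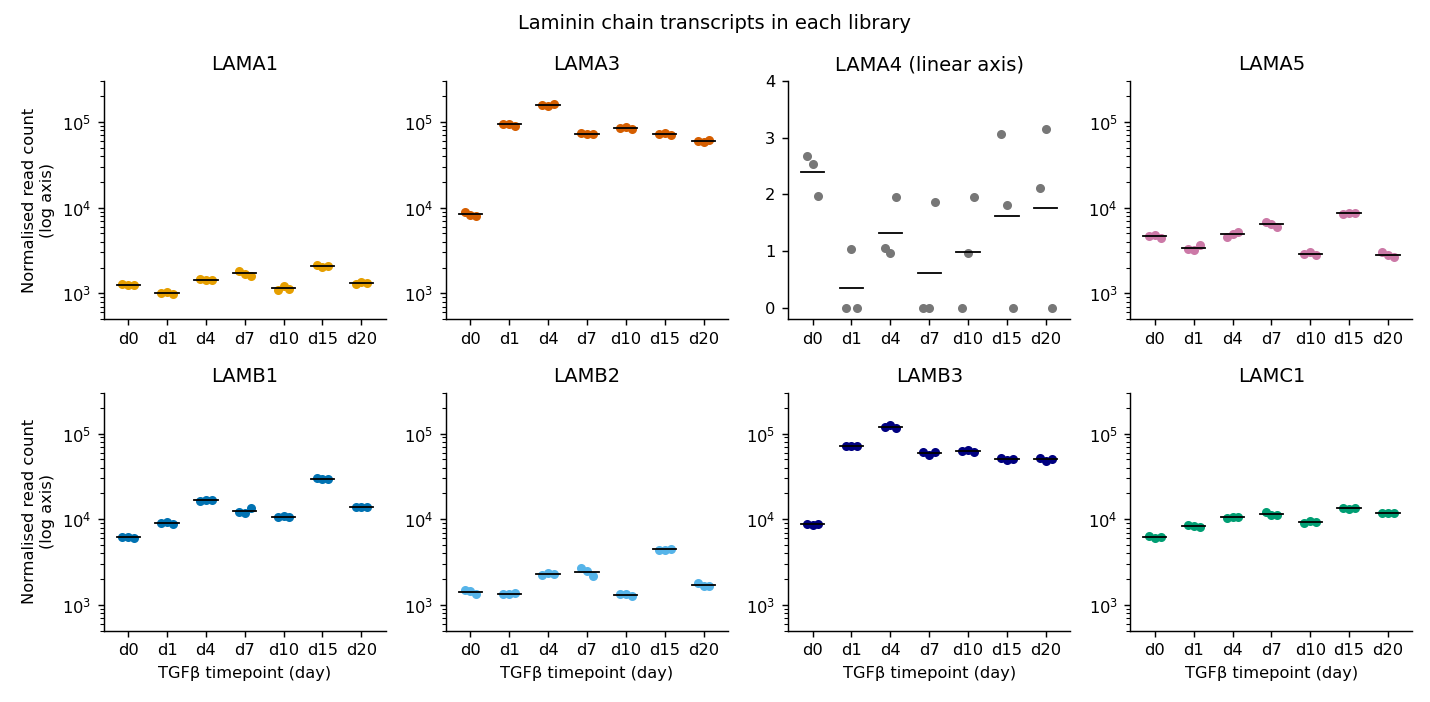
Normalised read count of the 8 laminin chains by TGFβ timepoint, with each library as a point and the mean of the 3 libraries as a line (log axis, linear for LAMA4). LAMA3 rose from a mean of 8369 at d0 to 156805 at d4 and LAMB3 from 8723 to 119907, while LAMA1, LAMA5 and LAMB2 crossed or neared their untreated level and LAMA4 stayed at or below 3 reads.

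The promoters of both genes are printed because they rose together, beside that of LAMB1, which rose less and was highest at d15 rather than d4. They are RefSeq windows of build GRCh38.p14 with 250 bases before and 50 after a start site, 300 in all, 5′ to 3′ on the strand of the gene, and capitals mark matches to TGANTCA, the AP-1 motif, a palindrome that reads the same on both strands. RefSeq windows were matched by symbol for LAMA3, LAMA4, LAMA5, LAMB1, LAMB2, LAMB3 and LAMC1. The authors' processing notes name build hg19, so these coordinates were not joined to any measurement.
LAMA3, chr18:23872770-23873069, plus strand: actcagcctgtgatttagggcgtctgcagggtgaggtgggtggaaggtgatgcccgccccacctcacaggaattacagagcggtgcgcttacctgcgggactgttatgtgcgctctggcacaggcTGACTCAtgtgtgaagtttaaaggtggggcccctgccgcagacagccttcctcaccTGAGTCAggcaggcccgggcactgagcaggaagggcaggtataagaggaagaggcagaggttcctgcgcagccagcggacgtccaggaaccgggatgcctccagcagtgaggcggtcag
LAMB3, chr1:209651325-209651624, minus strand: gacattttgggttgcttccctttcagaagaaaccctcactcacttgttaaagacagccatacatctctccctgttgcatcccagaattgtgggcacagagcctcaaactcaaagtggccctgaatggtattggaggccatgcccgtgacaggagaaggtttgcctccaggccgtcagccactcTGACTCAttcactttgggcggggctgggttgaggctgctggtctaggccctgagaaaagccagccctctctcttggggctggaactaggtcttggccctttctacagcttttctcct
LAMB1, chr7:108003112-108003411, minus strand: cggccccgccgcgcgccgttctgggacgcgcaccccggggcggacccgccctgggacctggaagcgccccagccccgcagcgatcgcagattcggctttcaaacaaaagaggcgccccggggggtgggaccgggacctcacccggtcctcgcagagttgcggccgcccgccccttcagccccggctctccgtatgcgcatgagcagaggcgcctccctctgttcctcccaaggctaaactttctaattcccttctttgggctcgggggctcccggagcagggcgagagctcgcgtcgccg
The LAMA3 window held 2 matches, 125 and 69 bases before the start, and this LAMB3 window held 1, 67 bases before the start. The other 2 LAMB3 windows, not printed here, held 0, as did those of LAMA4, LAMA5, LAMB1, LAMB2 and LAMC1. A match in both LAMA3 and LAMB3 thus depends on the LAMB3 window taken. Of all 35116 windows in the table, 7.71% held at least 1 match and 0.515% held 2 or more. CAGAC, the short SMAD-binding motif, was found 2 times in the LAMA3 window on either strand and 0 times in these LAMB3 and LAMB1 windows, but 45.3% of all windows held it. CACCTG, an E-box, was found 1 time in the LAMA3 window, starting within 4 bases of the nearer AP-1 match and overlapping it, and 20.6% of all windows held one. The LAMA3 window lies at the start of a shorter LAMA3 transcript. A match is a description of letters, not a bound site.

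LAMA3 and LAMB3 together took 0.0927% ± 0.0034 of all reads at d0, 1.31% ± 0.017 at d4 and 0.523% ± 0.015 at d20 (SD, n = 3). The 8 laminin chains took 0.199% ± 0.0063 at d0, 1.48% ± 0.020 at d4 and 0.672% ± 0.015 at d20 (SD, n = 3). In bulk RNA, more cells with a transcript and more transcript per cell cannot be told apart, here or in the results that follow.

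LAMB1 and LAMC1, a beta and a gamma chain of the network-forming laminins, rose on all 6 treated days, by less than LAMA3 and LAMB3 on each, though LAMB1 came near LAMB3 at d15, with a log2 of 2.28 against 2.54. LAMB1 had 6247, 6132 and 6064 normalised read counts at d0, 9104, 9312 and 8821 at d1 and 16501, 16658 and 16734 at d4. The d7 libraries had 12141, 11874 and 13433, the d10 libraries 10506, 11032 and 10706, the d15 libraries 30105, 29675 and 29842, and the d20 libraries 13935, 13889 and 13970. All treated libraries lay above the untreated ones, and those of d15 stood above every other day. The log2 fold changes against d0, again from d1 to d20, were 0.56, 1.44, 1.02, 0.81, 2.28 and 1.18 (SE 0.04 on each day), so that d15, with a 4.86-fold rise (limma adjusted p = 7.56e-22), was its highest day rather than d4. Its 2-fold call at d7 rested on the third d7 library, the one that stood apart, without which the log2 fold change was 0.97.

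LAMC1 had 6384, 6040 and 6198 normalised read counts at d0, 8561, 8443 and 8053 at d1, and 10375, 10616 and 10714 at d4. The d7 libraries had 12197, 11170 and 11352, the d10 libraries 9009, 9502 and 9316, the d15 libraries 13712, 13312 and 13377, and the d20 libraries 11706, 11683 and 11809. Its treated libraries also lay above all untreated ones, within a narrower range. The log2 fold changes from d1 to d20 were 0.43, 0.77, 0.90, 0.58, 1.12 and 0.92 (SE 0.04 on each day, limma adjusted p at most 1.67e-09). Only d15 passed 2-fold, and there it was 0.96 when libraries were rescaled to the same total and 0.98 under quantile normalization.

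LAMB2, LAMA5 and LAMA1 had a sawtooth course, with high values at d7 and d15 and low values at d1 and d10. Among the treated days LAMB1 and LAMC1 were also lowest at d1 and d10 and highest at d15, but they stayed above d0. LAMB2, the alternative beta chain of the network-forming laminins, had 1492, 1453 and 1360 normalised read counts at d0, 1331, 1349 and 1395 at d1 and 2243, 2364 and 2314 at d4. The d7 libraries had 2683, 2509 and 2168, the d10 libraries 1347, 1338 and 1275, the d15 libraries 4421, 4380 and 4548, and the d20 libraries 1824, 1677 and 1671. The libraries of d1 overlapped those of d0, those of d10 lay just below d0, and those of d15 lay above all others. Against d0 the log2 difference was -0.08 at d1 (limma adjusted p = 0.248) and -0.12 at d10 (limma adjusted p = 0.0711), and it was 1.63 at d15 (SE 0.06, limma adjusted p = 2.31e-16), a 3.10-fold rise. After rescaling libraries to the same total these were -0.27 at d1 and -0.35 at d10, both past the threshold, as they were under quantile normalization (-0.17 and -0.24). The d10 value also passed with TMM scaling, in edgeR, in a fit of d0 and d10 alone (limma adjusted p = 0.014) and without the third d0, the first d7 or the third d7 library (limma adjusted p = 0.0347, 0.0379 and 0.0064). The rise at d20, 0.26 (limma adjusted p = 0.000436), was 0.064 after rescaling (limma adjusted p = 0.326). The pseudogene LAMB2P1, with which reads could be shared, was listed at no more than 18.6.

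LAMA5, the main alpha chain of adult epithelial basement membranes, had 4668, 4746 and 4454 normalised read counts at d0 and 3294, 3211 and 3629 at d1. It had 4594, 4875 and 5263 at d4, 6781, 6447 and 5892 at d7 and 2881, 3010 and 2807 at d10. At d15 the libraries had 8484, 8632 and 8770 and at d20 they had 3030, 2815 and 2646. The libraries of d1, d10 and d20 lay below every untreated library and those of d7 and d15 above, while those of d4 overlapped d0. LAMA5 fell by a log2 of 0.45 at d1, 0.67 at d10 and 0.71 at d20 and rose by 0.46 at d7 and 0.90 at d15 (SE 0.06 on each day, limma adjusted p at most 9.72e-07). None of these passed 2-fold, but the steps between days did: LAMA5 fell by 1.13 from d7 to d10, rose by 1.57 from d10 to d15, and fell by 1.61 from d15 to d20 (limma adjusted p = 1.86e-12, 1.06e-15 and 1.30e-15). At d4 the log2 difference from d0 was 0.09 (limma adjusted p = 0.197), and it was -0.11 after rescaling to the same total and -0.04 under quantile normalization.

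LAMA1, the alpha chain of early embryonic basement membranes, had 1274, 1238 and 1245 normalised read counts at d0, 1021, 1033 and 992 at d1, and 1478, 1428 and 1419 at d4. The d7 libraries had 1838, 1691 and 1595, the d10 libraries 1101, 1213 and 1116, the d15 libraries 2118, 2049 and 2074, and the d20 libraries 1295, 1366 and 1330. The d15 libraries were highest and the d1 libraries lowest, with no overlap with d0 on either day. LAMA1 fell by a log2 of 0.30 at d1 and rose by 0.73 at d15 (SE 0.05, limma adjusted p = 1.02e-05 and 5.28e-12). At d4 it was 0.20 higher (limma adjusted p = 0.000572), but 0.0057 after rescaling to the same total (limma adjusted p = 0.912). The log2 difference at d10 was -0.13 (limma adjusted p = 0.016), which rose to an adjusted p of 0.0544 without the first d0 library, 0.0818 without the first d10 library and 0.0629 without the third d10 library. At d20 it was 0.09 (limma adjusted p = 0.110), and -0.11 after rescaling to the same total.

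LAMA4 was at the floor of detection, taken as 3 reads, in all 21 libraries. It had 2 to 3 reads in the untreated libraries and 0 to 3 in the treated ones, with 0 in 7 libraries, so no fold change is given, and a difference was not detectable at this depth. Among the other chains, LAMB4 had 0 to 4 reads and LAMC3 0 to 12 per library, and LAMA2 had 32 to 73. LAMA2 fell by a log2 of 0.62 ± 0.21 (SE) at d20, from a mean of 59.4 at d0 (limma adjusted p = 0.0131).

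**Figure D2:**
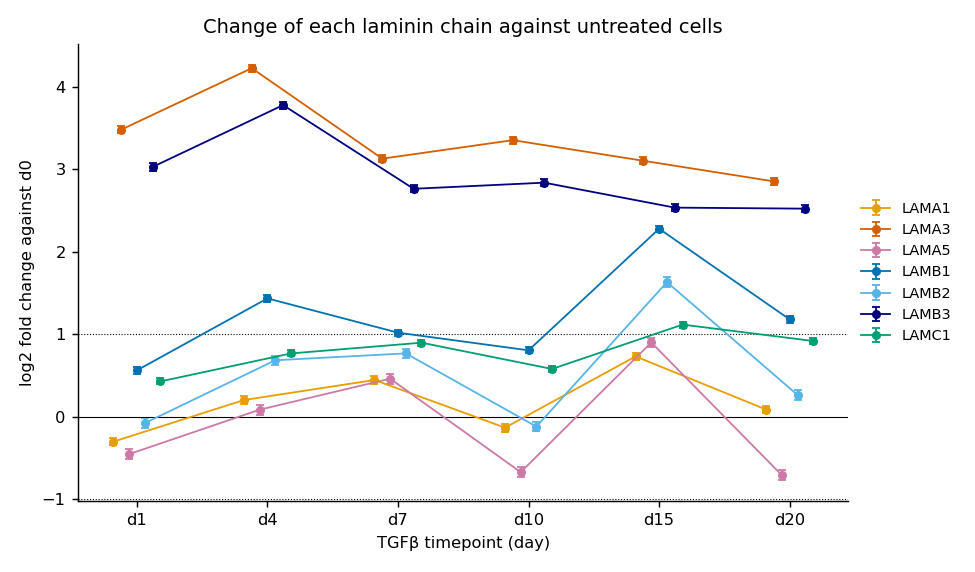
Log2 fold change of the 7 tested laminin chains against d0 by TGFβ timepoint, with SE bars and dotted lines at 2-fold. LAMA3 and LAMB3 stood above all others on every day, from 2.85 and 2.52 at d20 to 4.23 and 3.78 at d4, LAMB1 reached 2.28 at d15, and LAMA5 ran between -0.71 and 0.90.

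Counted over the list, 2 of the 7 tested chains were at least 2-fold higher than d0 at d1 and d10, 3 at d4, d7 and d20, and 5 at d15, and 0 were at least 2-fold lower on any day by the limma test. The lowest of these log2 fold changes was -0.71 in the limma fit, so an unadjusted p could give no lower call either. Separate fits in edgeR and DESeq2 also gave 0 lower. LAMA3 and LAMB3 passed on all 6 days, LAMB1 on d4, d7, d15 and d20, and LAMB2 and LAMC1 on d15. Of all 13343 genes tested, the shares at least 2-fold higher from d1 to d20 were 6.47%, 9.68%, 8.79%, 6.94%, 11.7% and 7.51%. The shares at least 2-fold lower were 3.87%, 5.03%, 2.93%, 7.34%, 8.66% and 4.72% on the same days. The median log2 fold change of the 7 chains from d1 to d20 was 0.43, 0.77, 0.90, 0.58, 1.63 and 0.92.

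By adjusted p alone, 4 chains were higher and 2 lower at d1 and d10, 6 higher and 0 lower at d4, 7 higher and 0 lower at d7 and d15, and 5 higher and 1 lower at d20. Among all genes tested the shares higher from d1 to d20 were 31.3%, 36.9%, 34.6%, 37%, 39.2% and 32.5%. The shares lower were 28.5%, 35.3%, 32.6%, 30.7%, 37.3% and 30.2%. With so many genes past this threshold, small changes such as those of LAMA1 count as calls. When libraries were rescaled to the same total, the median gene moved by a log2 of between -0.20 at d20 and -0.14 at d15, and the share of 2-fold calls that were higher fell from 62.5% to 47.6% at d1 and from 61.4% to 47.6% at d20. LAMB1 was then at 0.83 at d7 and 0.98 at d20, under 2-fold.

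Between successive timepoints, 0 of the 7 chains changed at least 2-fold from d1 to d4, 2 from d4 to d7 (LAMA3 and LAMB3, lower), 1 from d7 to d10 (LAMA5, lower), 3 from d10 to d15 (LAMB2, LAMA5 and LAMB1, higher) and 3 from d15 to d20 (the same 3, lower). The shares of all genes tested that did so in either direction were 6.17%, 3.78%, 12.7%, 22.2% and 15%, in that order. By limma adjusted p alone 7, 6, 6, 7 and 6 of the 7 chains differed between those timepoints, against 64.9%, 51.1%, 71.4%, 79.8% and 74.1% of all genes. From d1 to d4 all 7 chains rose, by a log2 of between 0.34 (LAMC1) and 0.87 (LAMB1), under 2-fold for each also in edgeR and DESeq2. From d10 to d15, LAMB2 rose by 1.75, LAMA5 by 1.57 and LAMB1 by 1.47, while LAMA3 and LAMB3 fell by 0.25 and 0.30.

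Levels were compared between chains per kilobase of the longest transcript in GENCODE. At d0, LAMB3 was highest with 2026 normalised read counts per kb, followed by LAMB1 with 1066, LAMC1 with 787 and LAMA3 with 785, the last 2 overlapping. LAMA5 with 405, LAMB2 with 253 and LAMA1 with 130 came next and did not overlap. On every treated day the first 4 places were LAMB3, LAMA3, LAMB1 and LAMC1, with no overlap between neighbours. At d4 these levels were 27853, 14708, 2884 and 1340 per kb, and at d15 they were 11761, 6750, 5181 and 1707. LAMB2 stood above LAMA5 at d15 and d20, below it at d0, d1, d7 and d10, and overlapped it at d4. The place of LAMA3 depends on its transcript, of 10661 bases at the longest and 5671 bases for the shorter form. Per kb of the shorter form LAMA3 had 1476 ± 68 at d0 (SD, n = 3), below LAMB3 but above LAMB1 and LAMC1, with no overlap. By this form LAMA3 was thus not level with LAMC1 at d0. It had 12690 ± 272 at d15, above LAMB3 (SD, n = 3), and from d1 to d10 the libraries of LAMA3 and LAMB3 overlapped. At d20 it had 10672 ± 259 (SD, n = 3), again below LAMB3 with 11662.

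**Figure D3:**
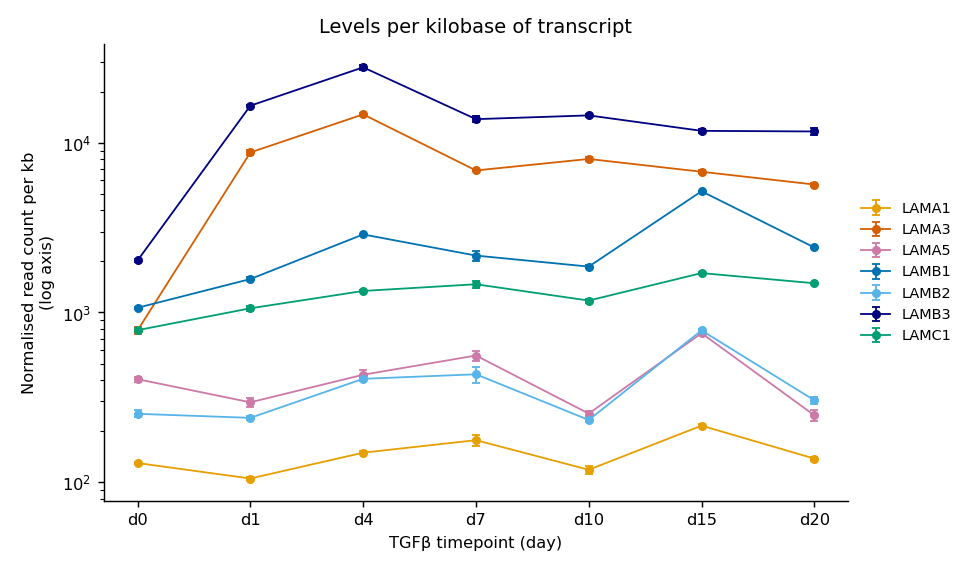
Normalised read count per kb of the longest transcript by TGFβ timepoint (log axis), as the mean of 3 libraries with SD bars, for the 7 tested laminin chains. By this length LAMA3 moved from 785 at d0, level with LAMC1, to 14708 at d4, between LAMB3 and LAMB1. Per kb of its shorter transcript, not drawn, LAMA3 had 1476 at d0, already between LAMB3 and LAMB1.

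Ratios of chains of a kind within a library, which do not depend on its scaling, were used to ask whether the chain make-up of the transcripts shifted. The log2 ratio of LAMB1 to LAMB3, not corrected for length, was -0.50 ± 0.03 in untreated cells and, from d1 to d20, -2.97 ± 0.04, -2.85 ± 0.05, -2.25 ± 0.08, -2.54 ± 0.03, -0.76 ± 0.03 and -1.85 ± 0.06 (SD, n = 3). All treated libraries, from -3.01 to -0.73, lay below the untreated ones, from -0.54 to -0.47. Of the treated days, d15 came nearest to d0, with a difference of -0.26. The log2 ratio of LAMA5 to LAMA3 was -0.86 ± 0.06 in untreated cells and, from d1 to d20, -4.79 ± 0.14, -5.00 ± 0.08, -3.52 ± 0.09, -4.88 ± 0.01, -3.06 ± 0.05 and -4.42 ± 0.12 (SD, n = 3). Its treated libraries, from -5.09 to -3.00, also lay below the untreated ones, from -0.92 to -0.80.

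Over all treated days the mean difference from d0 was -1.70 for LAMB1 to LAMB3 and -3.42 for LAMA5 to LAMA3, lower in 18 of 18 treated libraries (two-sided exact permutation p = 0.0015 for each, the smallest this test can give for 18 libraries against 3, and 0.0105 after Benjamini-Hochberg adjustment over 14 tests). The test over all treated days took each of the 18 libraries as a separate unit, although they came 3 to a day and all untreated ones came from d0. Its p therefore does not treat days as the units. For each single day the two-sided exact permutation p was 0.1, the smallest that 3 libraries against 3 allow. A ratio of LAMA4 to LAMA3 was planned as well but is not given, because LAMA4 was at the floor. Of the ratios chosen after the values were seen, LAMB3 to LAMA3 was 0.06 ± 0.06 at d0 and between -0.51 at d15 and -0.27 at d20 afterwards (log2, SD, n = 3). LAMB1 to LAMC1 was -0.01 ± 0.03 at d0, 0.65 ± 0.01 at d4 and 1.15 ± 0.01 at d15 (log2, SD, n = 3).

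**Figure D4:**
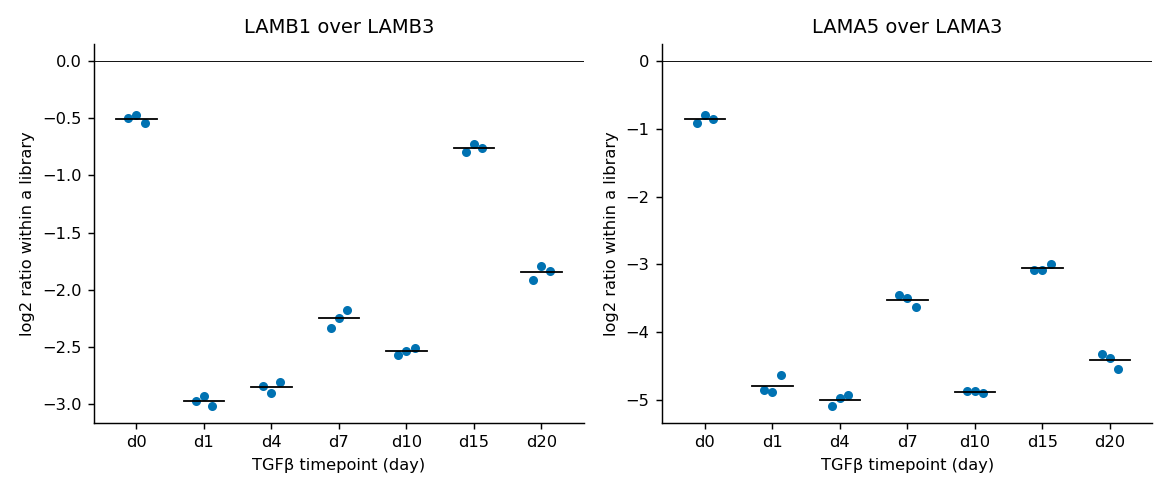
Log2 ratio within each library of LAMB1 to LAMB3 (left) and LAMA5 to LAMA3 (right) by TGFβ timepoint, with each library as a point and the mean as a line. In all 18 treated libraries both ratios lay below those of the 3 untreated ones, and d15 came nearest to d0, at -0.76 and -3.06.

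Across the 21 libraries, which share 7 timepoints, the log2 levels of LAMA3 and LAMB3 had a Pearson r of 0.997, and 0.977 over the 18 treated libraries alone. Among the other chains it was 0.949 for LAMA1 and LAMB2, 0.903 for LAMB1 and LAMC1, 0.870 for LAMA5 and LAMB2, and 0.860 for LAMA1 and LAMA5. It was 0.87 for LAMB1 and LAMB2, 0.763 for LAMA1 and LAMB1, 0.742 for LAMB2 and LAMC1, and 0.701 for LAMA1 and LAMC1. The lowest were 0.541 for LAMA5 and LAMB1 and 0.376 for LAMA5 and LAMC1. Over the treated libraries alone, these pairs had between 0.668 (LAMA5 and LAMC1) and 0.956 (LAMA1 and LAMB2). With LAMA3, LAMC1 had 0.670 and LAMB1 0.588 over all libraries, and -0.39 and -0.07 over the treated ones. LAMA5 and LAMA3 had an r of -0.03. These values describe courses over shared timepoints and are given with no test.

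Among the 11483 genes with a mean of at least 50, the ones most like LAMA3 by the same r were SNAI2 (0.993), which encodes the EMT transcription factor SLUG, ZFP36L1 (0.987), an RNA-binding protein, and GNA15 (0.985), a G-protein subunit. SNAI2 had a mean of 1248 at d0, 8254 at d4 and 5171 at d20. For LAMB3 they were GNA15 (0.987), SNAI2 (0.986) and ASAP2 (0.984). For LAMB1 they were LAPTM5 (0.981), ZXDB (0.969) and CLIP2 (0.969), and for LAMC1 they were MRC2 (0.985), a collagen-binding receptor, CUX2 (0.980) and MLLT3 (0.978). RFNG (0.988), LOC729678 (0.988) and UBXN6 (0.987) were most like LAMB2. EVL (0.972), SUN1 (0.964) and ZNF395 (0.962) were most like LAMA5, and PDPR (0.981), TBC1D5 (0.980) and BACE1 (0.973) most like LAMA1.

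The receptors of laminin at d20 were mixed. Of 14 genes, all tested, 5 were at least 2-fold higher than d0 and 2 at least 2-fold lower, against 7.51% and 4.72% of all genes, and the median log2 difference was 0.72. The integrin chains ITGB4 and ITGA6, which pair as the hemidesmosome receptor of laminin with the LAMA3 and LAMB3 products, rose 3.19-fold and 2.22-fold. ITGB4 had 12686, 12876 and 12580 normalised read counts at d0, 41536, 39617 and 40730 at d20 and 86465, 82842 and 81384 at d15, with no overlap between these days. ITGA3, which pairs with ITGB1 as a laminin receptor outside hemidesmosomes, rose 2.43-fold, ITGB1 2.05-fold, and ITGA1, whose integrin also holds collagen, 3.06-fold (limma adjusted p at most 1.96e-12 for the 5 genes). The 2-fold calls of ITGA6 and ITGB1 were lost when libraries were rescaled to the same total, at a log2 of 0.95 and 0.83. ITGA2, which rose 4.07-fold at d1, was just under 2-fold at d20, at a log2 of 0.99 (limma adjusted p = 5.51e-09).

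BCAM, a receptor of LAMA5-containing laminins, fell by a log2 of 2.24 ± 0.13 (SE) at d20, which is 4.72-fold lower (limma adjusted p = 1.55e-12). It had 4227, 4515 and 4221 normalised read counts at d0 and 1003, 866 and 878 at d20, with no overlap. At d15, the day with the highest LAMA5, BCAM had 3489, 3309 and 3354. At d7 the third library, with 1531, stood apart from the 2751 and 2506 of the other 2. ITGA7, an alpha chain mainly of muscle, was low, at 39.2, 38.2 and 34.6 at d0 and 23.3, 10.5 and 19.6 at d20 (log2 -1.09 ± 0.37 SE, limma adjusted p = 0.0148), and lost its call without the second d20 library (adjusted p = 0.101). DAG1, the dystroglycan precursor, fell by a log2 of 0.75, and SDC1 stood at -0.05 (limma adjusted p = 0.355). RPSA, the ribosomal protein also known as a laminin-binding protein, was at -0.26, and its reads can be shared with processed pseudogenes.

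Of the 14 partners of laminin in the basement membrane and hemidesmosome, 13 were tested (NID2, with 5 to 16 reads per library, was not). By limma 6 were at least 2-fold higher at d20 and 0 at least 2-fold lower, against 7.51% and 4.72% of all genes. Their median log2 difference was 0.90 and the lowest was -0.36, so an unadjusted p could give no lower call either. Separate fits in edgeR and DESeq2 also gave 0 lower. Of the 13, 8 were higher and 4 lower by adjusted p alone, against 32.5% and 30.2% of all genes. COL4A1 and COL4A2, the collagen IV chains of nearly all basement membranes, rose 5.94-fold and 5.22-fold (limma adjusted p = 6.59e-21 and 1.86e-21). COL4A1 had 3050, 2896 and 2848 normalised read counts at d0 and 17264, 17190 and 17747 at d20. The other collagen IV chains on the list did not follow them, with log2 differences of -0.25 for COL4A5 and -0.22 for COL4A6. NTN4, a netrin that binds laminin network nodes, rose 3.42-fold, COL7A1, the anchoring fibril collagen that binds the LAMA3-containing laminin, 2.31-fold, and PLEC, the hemidesmosome linker plectin, 2.09-fold. The 2-fold call of PLEC was lost after rescaling to the same total (log2 0.86), under quantile normalization (0.87) and without the first d20 library (0.996), which left 5 partner genes in the count.

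NID1, the nidogen that bridges laminin and collagen IV by binding the gamma chain, was called higher at d20 but remained low, at 2.67, 3.39 and 1.98 at d0 and 18.02, 10.5 and 20.6 at d20. Its untreated libraries had 2 to 4 reads, around the floor of 3. The mean of NID1 was 2.68 at d0, 4.43 at d1, 8.24 at d4 and 4.58 at d10, each under the filter limit of 10. It was tested only because of higher values at d7, d15 and d20, so the filter and its d20 call rest partly on the same values. The 6 partner genes counted as higher at d20 include NID1. COL17A1, the transmembrane collagen of hemidesmosomes, was 1.35-fold higher at d20, and DST, which encodes its intracellular partner, was at a log2 of -0.36. Of the 4 proteases that process laminins or act on them, 3 were at least 2-fold higher at d20, against 7.51% of all genes, and the median log2 difference of the 4 was 1.66. MMP2 rose from 59.6, 71.3 and 50.5 at d0 to 1944, 1912 and 1905 at d20, a 31.6-fold change (limma adjusted p = 1.69e-22). MMP14, a membrane-bound protease that cleaves matrix proteins, rose 4.15-fold, TLL1 2.40-fold, and BMP1, which trims the LAMA3 product, had a log2 difference of 0.97 (limma adjusted p = 6.53e-15), just under 2-fold.

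**Figure D5:**
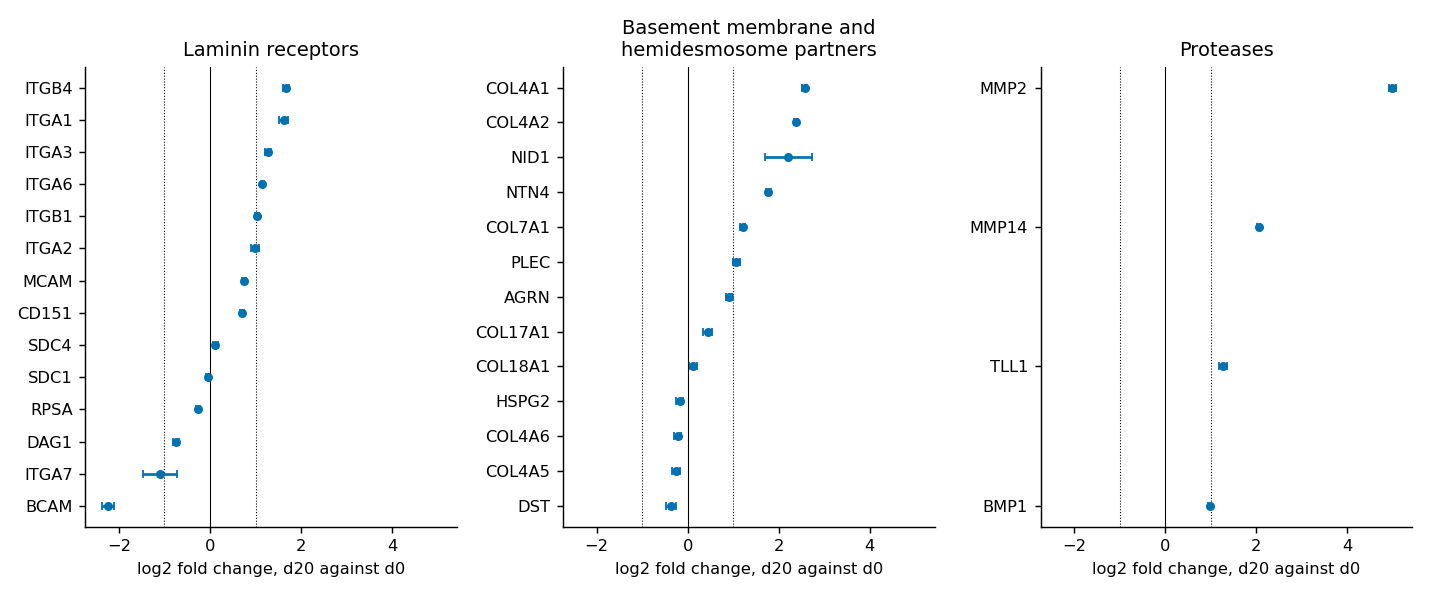
Log2 fold change at d20 against d0 of the tested laminin receptors (14 genes), basement membrane and hemidesmosome partners (13 genes) and proteases (4 genes), with SE bars and dotted lines at 2-fold. MMP2 (4.98) and COL4A1 (2.57) lay furthest above the untreated level and BCAM (-2.24) furthest below.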

How the data were processed

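RNA of HMLE cells at 7 timepoints, 3 libraries each, was analysed from a table of normalised read counts for 23201 gene symbols. Per the labels, submitters' processing notes name STAR 2.7, Salmon 1.4 and hg19; the role of each and the annotation are not given in the sources used here. The authors divided reads by one size factor per library, so each deposited value is a normalised signal, and whole reads were recovered for 100% of values. Genes with a mean of at least 10 (13343) were tested on log2(value + 1), a scale that understates changes of low genes, with limma 3.58.1 in R 4.3.3 (eBayes with trend, one mean per timepoint) and Benjamini-Hochberg adjustment within each contrast. A call was an adjusted p under 0.05, with at least a 2-fold change where stated. Ratios were tested by exact permutation in SciPy 1.17.1. Members and lists were chosen with earlier results of these data known. Named genes were all members, list genes with the 3 largest rises and 3 largest falls at d20, every list gene of a count of 5 or fewer, and the 3 genes most correlated with each tested member; other genes were named after their values were seen. Alternatives were a pseudocount of 10, no filter, rescaled totals, TMM scaling, quantile normalization, only the groups compared, edgeR 4.0.16 and DESeq2 1.42.0 on recovered reads, no minimum fold, and each library left out. The limma, edgeR and DESeq2 fits were tried on simulated data for d20 against d0, with a fold limit under 2-fold. The permutation test was not tried in this way. The floor of 3 reads covers counting error only, while SDs and SEs are over libraries.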

Additional observations from a re-analysis of the deposited data

Results flagged for a closer look

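LAMA5 and LAMA1 were higher than d0 on some days and lower on others, and the direct contrasts of neighbouring timepoints passed the limma threshold. LAMA5 changed by a log2 of -1.13 from d7 to d10, 1.57 from d10 to d15 and -1.61 from d15 to d20 (limma adjusted p = 1.86e-12, 1.06e-15 and 1.30e-15), crossing its untreated level each time. LAMA1 crossed its own from d1 to d4 with 0.50, from d7 to d10 with -0.58 and from d10 to d15 with 0.86 (limma adjusted p = 8.92e-09, 7.17e-10 and 3.59e-13). After rescaling to the same total, LAMA1 at d4 was 0.0057 from d0 (limma adjusted p = 0.912), so that its first crossing was lost. The d10 position of LAMA1 below d0, -0.13, passed the threshold at a limma adjusted p of 0.016. It did not pass without the first d0, the first d10 or the third d10 library (limma adjusted p = 0.0544, 0.0818 and 0.0629). The crossings of LAMA1 from d7 to d10 and from d10 to d15 rest on this position. The third d7 library lay 10.9% below the other 2 for LAMA5 and 9.6% below for LAMA1. Without it the steps from d7 to d10 were -1.19 for LAMA5 and -0.63 for LAMA1, both past the threshold.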

How the results depend on the processing

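No paired analysis was possible because replicates are not numbered in the table's headers. Without a minimum fold change, the chains higher than d0 were 4 at d1 and d10, 6 at d4, 7 at d7 and 5 at d20, those lower were 2 at d1 and d10 and 1 at d20, and those changed between successive timepoints were 7, 6, 6, 7 and 6. With no filter on low values, 1 chain was lower at d1, LAMA4, with at most 3 reads per library. From d4 to d7, 0 chains changed 2-fold under quantile normalization and 1 in edgeR, and leaving out 1 library gave 1 to 2. Receptors at least 2-fold higher at d20 were 3 after rescaling to the same total or quantile normalization, and 5 to 6 with 1 library left out. ITGA2 was added without the first d0 library (log2 1.04) or the first d20 library (1.02). Receptors at least 2-fold lower were 1 with a pseudocount of 10 and 1 to 2 with 1 library left out. Values that changed sign were LAMA1 at d20 (-0.11, rescaled), LAMA5 at d4 (-0.11 rescaled, -0.040 quantile) and LAMB3 from d15 to d20 (-0.01 with all libraries, 0.011 without the first d15 library, 0.016 without the second d20 library, and -0.045 at the lowest with 1 library left out). The cause was not tested. The ratio differences were between -1.79 and -1.65 (LAMB1 to LAMB3) and between -3.50 and -3.38 (LAMA5 to LAMA3) with 1 library left out. Without any 1 untreated library their adjusted p was 0.0737, the smallest that 18 libraries against 2 give over these tests. Of 616 fold changes under the other alternatives, 602 kept their direction and side of the threshold. The signs and 2-fold calls of LAMA3 and LAMB3 against d0 held under every alternative.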
